A study of Mus musculus with 3 samples.

Results

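Rab genes encode small GTPases that give membrane compartments their identity. They were taken as every gene symbol made of "Rab", a number and at most 1 further letter, which gave 56 genes of 25410 symbols in the count files, listed in 64 rows. All 56 matched a gene model with a known transcript length. Levels come from RNA sequencing of 1 group of 3 samples: cells of the mouse line IDG-SW3, taken at day 35 after exposure to 100 nM parathyroid hormone (PTH) for 24 h. The design text calls the replicates biological. IDG-SW3 is a single osteocytic line whose growth state depends on interferon-gamma and a lower temperature, both withdrawn for differentiation in osteogenic medium. Vehicle-treated libraries were not analysed here, so the effect of PTH on a Rab gene was not measured. What the libraries give is which Rab genes the treated cells expressed, at what level, and how far the replicates lie apart.

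A Rab protein cycles between an active GTP-bound form on a membrane and an inactive GDP-bound form held in the cytosol. Exchange factors switch it on, GTPase-activating proteins switch it off, and effectors bind the active form to tether, move or fuse vesicles. Different Rabs mark the endoplasmic reticulum and Golgi, early and late endosomes, recycling endosomes, secretory granules and lysosome-related organelles. In bone, vesicle traffic carries procollagen and other matrix proteins out of osteoblast-lineage cells.

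Total counts were 35195518 in replicate 1, 37299517 in replicate 2 and 45240005 in replicate 3, and 4647, 3868 and 5850 symbols had 0 counts in the same order. Levels are given as RPKM, counts per kilobase of transcript and per 1000000 counts of the library, as mean ± SD over the 3 libraries (n = 3). Over all genes with a length, 39.4% were called above 1 RPKM. Of 13 osteoblast and osteocyte markers, 8 were above 1 RPKM, with Col1a2 highest at 2950 ± 90.4 RPKM. Osteocyte markers of this list went both ways. Pdpn and Phex were among the 8 above, at 156 ± 27.6 and 9.05 ± 0.94 RPKM. Dmp1, Mepe and Fgf23 stood below 1 RPKM on average without passing the test, and Sost had 2 counts in 1 library. Of 23 markers of blood, endothelial, fat, nerve, muscle and pigment cells, 4 were above 1 RPKM (Kdr, Fabp4, Adipoq and Tubb3), and Pecam1, Acp5 and Plin1 were at 0. These 3 have several rows in the files, a kind of gene that is low throughout, so their 0 is not read as absence. The fat cell list summed to at most 17.0 RPKM in a library, and each of the other 5 lists of other cell types to under 4 RPKM. In bulk RNA, fewer cells of a type and less RNA per cell cannot be told apart.

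Many Rabs come in pairs of near copies, so the first question was whether reads could be told apart between them. Over the 14 pairs examined, the aligned coding sequences of the mouse GENCODE M21 transcripts were between 67.3% and 79.3% identical. The 60 coding bases in which 4 of the pairs are most alike were aligned, 5′ to 3′ on the coding strand, with the bases that differ within the pair in capitals and positions counted from the start codon.
Rab1 (chromosome 11, coding bases 283 to 342): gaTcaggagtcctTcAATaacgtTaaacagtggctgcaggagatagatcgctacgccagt
Rab1b (chromosome 19, coding bases 274 to 333): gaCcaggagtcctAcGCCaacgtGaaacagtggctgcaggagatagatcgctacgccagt
Rab8a (chromosome 8, coding bases 71 to 130): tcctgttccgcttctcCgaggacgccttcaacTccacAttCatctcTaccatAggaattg
Rab8b (chromosome 9, coding bases 71 to 130): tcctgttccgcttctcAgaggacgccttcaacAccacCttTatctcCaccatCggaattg
Rab11a (chromosome 9, coding bases 307 to 366): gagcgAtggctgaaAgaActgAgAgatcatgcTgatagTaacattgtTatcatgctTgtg
Rab11b (chromosome 17, coding bases 307 to 366): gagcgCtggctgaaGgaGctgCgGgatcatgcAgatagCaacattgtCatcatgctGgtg
Rab31 (chromosome 17, coding bases 14 to 73): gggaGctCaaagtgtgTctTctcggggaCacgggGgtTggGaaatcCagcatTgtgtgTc
Rab22a (chromosome 2, coding bases 11 to 70): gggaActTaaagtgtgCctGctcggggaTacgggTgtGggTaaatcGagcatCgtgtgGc
Within each of these 4 pairs, they are the coding stretch where a read could most easily be assigned to the wrong copy. Rab1 and Rab1b differed there at 6 of 60 bases, and Rab8a and Rab8b at 6. Rab11a and Rab11b differed at 9, and Rab31 and Rab22a at 11. Among the other pairs with such a stretch, the differences ran from 6 for Rab3d and Rab3a to 12 for Rab34 and Rab36. Bases outside the coding sequence were not aligned. The longest stretch without a difference in any pair's coding alignment was 38 bases, in Rab1 and Rab1b. Among all 50-base stretches of the members' transcripts, 52 of 56 Rab genes shared none with another Rab gene, and Rab11b shared the most, 21 of 6107. Sequence shared with genes outside the family was larger. More than 20% of the 50-base stretches also lay in another annotated gene for 7 members, namely Rab4b (80.3%), Rab43 (77.0%), Rab2b (71.9%), Rab24 (43.5%), Rab20 (22.9%), Rab33b (20.8%) and Rab6 (20.6%). For Rab2b, Rab24, Rab20, Rab33b and Rab6 exons of a gene on the opposite strand overlap, such as Gm43766 and Tox4 for Rab2b and Prelid1 for Rab24. For Rab4b and Rab43 the overlapping gene, Gm21983 and Gm45140, lies on the same strand. The libraries were directional, but whether the counting used strand is not known here, so reads in the shared stretches of these 7 genes cannot be told apart from those of their partners.

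Most Rab genes were expressed, and 34 were above 1 RPKM by edgeR's quasi-likelihood test with Benjamini-Hochberg adjustment over all genes. A further 5 were below 1 RPKM, 14 were unresolved (adjusted p of 0.05 or more) and 3 had 0 counts in every library. The 34 members above are 64.2% of the 53 members tested, where the same call was made for 43.2% of all 21012 genes tested. The 5 members below stand beside 9.88% of all genes called below. The median over the 56 Rab genes was 6.23 RPKM, and it was 0.497 RPKM over all 23048 genes with a length and 0.740 RPKM over the genes tested. With the shortest annotated transcripts the Rab median was 10.1 RPKM and with the longest 3.64 RPKM. The Arf and Arl genes, another small GTPase family, had a median of 11.1 RPKM, with 19 of 26 members above. Of these 26 genes 2 have several rows in the files, against 8 of the 56 Rab genes. The 48 Rab genes with 1 row had a median of 10.5 RPKM. Leaving out any 1 library kept the count above at 34. The count below was 0 without replicate 1, 0 without replicate 2 and 2 without replicate 3. At an unadjusted p under 0.05, edgeR had 7 below with all libraries and 2 without replicate 1 or replicate 2. DESeq2 called 31 above (35.6% of all genes) and 0 below (1.28%), also 0 below at an unadjusted p under 0.05, whereas limma on log2(RPKM + 0.1) called 34 above (42.5%) and 10 below (45.7%).

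**Figure D1:**
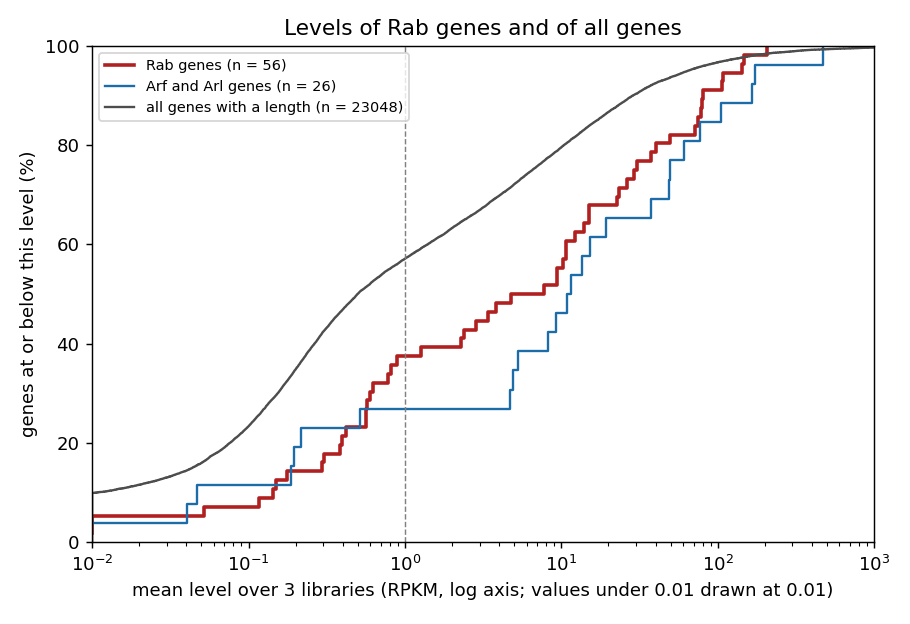
Cumulative share of genes (y axis, %) at or below a mean level over 3 libraries (x axis, RPKM, log axis) for the 56 Rab genes, 26 Arf and Arl genes and all 23048 genes with a length; the dashed line marks 1 RPKM. The Rab curve lies to the right of the curve of all genes over most of the axis, with medians of 6.23 and 0.497 RPKM, while the median of the Arf and Arl genes is 11.1 RPKM.

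How a gene was listed mattered for these calls. In the files 48 Rab genes had 1 row and 8 had 2 rows, and the rows of a symbol were summed. All 34 members above 1 RPKM had 1 row, which is 70.8% of the 48, all of them tested, beside 45.4% of all tested genes with 1 row. Of these 48, 2 were below, beside 9.19% of all tested genes with 1 row. The 8 members with 2 rows were Rab3a, Rab6, Rab17, Rab23, Rab27b, Rab34, Rab37 and Rab43. Of these, 5 had counts and were tested, and 0 were above by edgeR, also at an unadjusted p under 0.05, beside 24.9% of all tested genes with several rows. Other settings did place some above: Rab6 was called above with totals that omit the 15 highest symbols (edgeR adjusted p = 0.0234) and with the shortest transcripts (edgeR adjusted p = 0.0309), and Rab43 with the shortest transcripts (edgeR adjusted p = 0.00204). Without replicate 1, 1 of the 5 had an unadjusted p under 0.05 above, and 0 passed the adjusted test. Across the series, genes with a length and several rows had a median of 0.0693 RPKM, and those with 1 row a median of 0.694 RPKM. A low value of these 8 is therefore not read as absence, and over the 48 members with 1 row the median was 10.5 RPKM.

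The expressed family was led by a few members. The highest 5 held 47.5% of the summed Rab RPKM and the highest 12 held 79.2%. By level, 5 of the 34 members above stood at 100 RPKM or more, 20 between 10 and 100 RPKM, and 9 under 10 RPKM. Transcript length decides part of this order, because several Rab genes are annotated with both short and long transcripts. With lengths of transcripts linked to RefSeq, chosen after the data were seen, 13 members moved by more than 1.5 times, all downwards. The same 12 genes led under these lengths, and 11 of them led by counts alone, without any length.

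**Figure D2:**
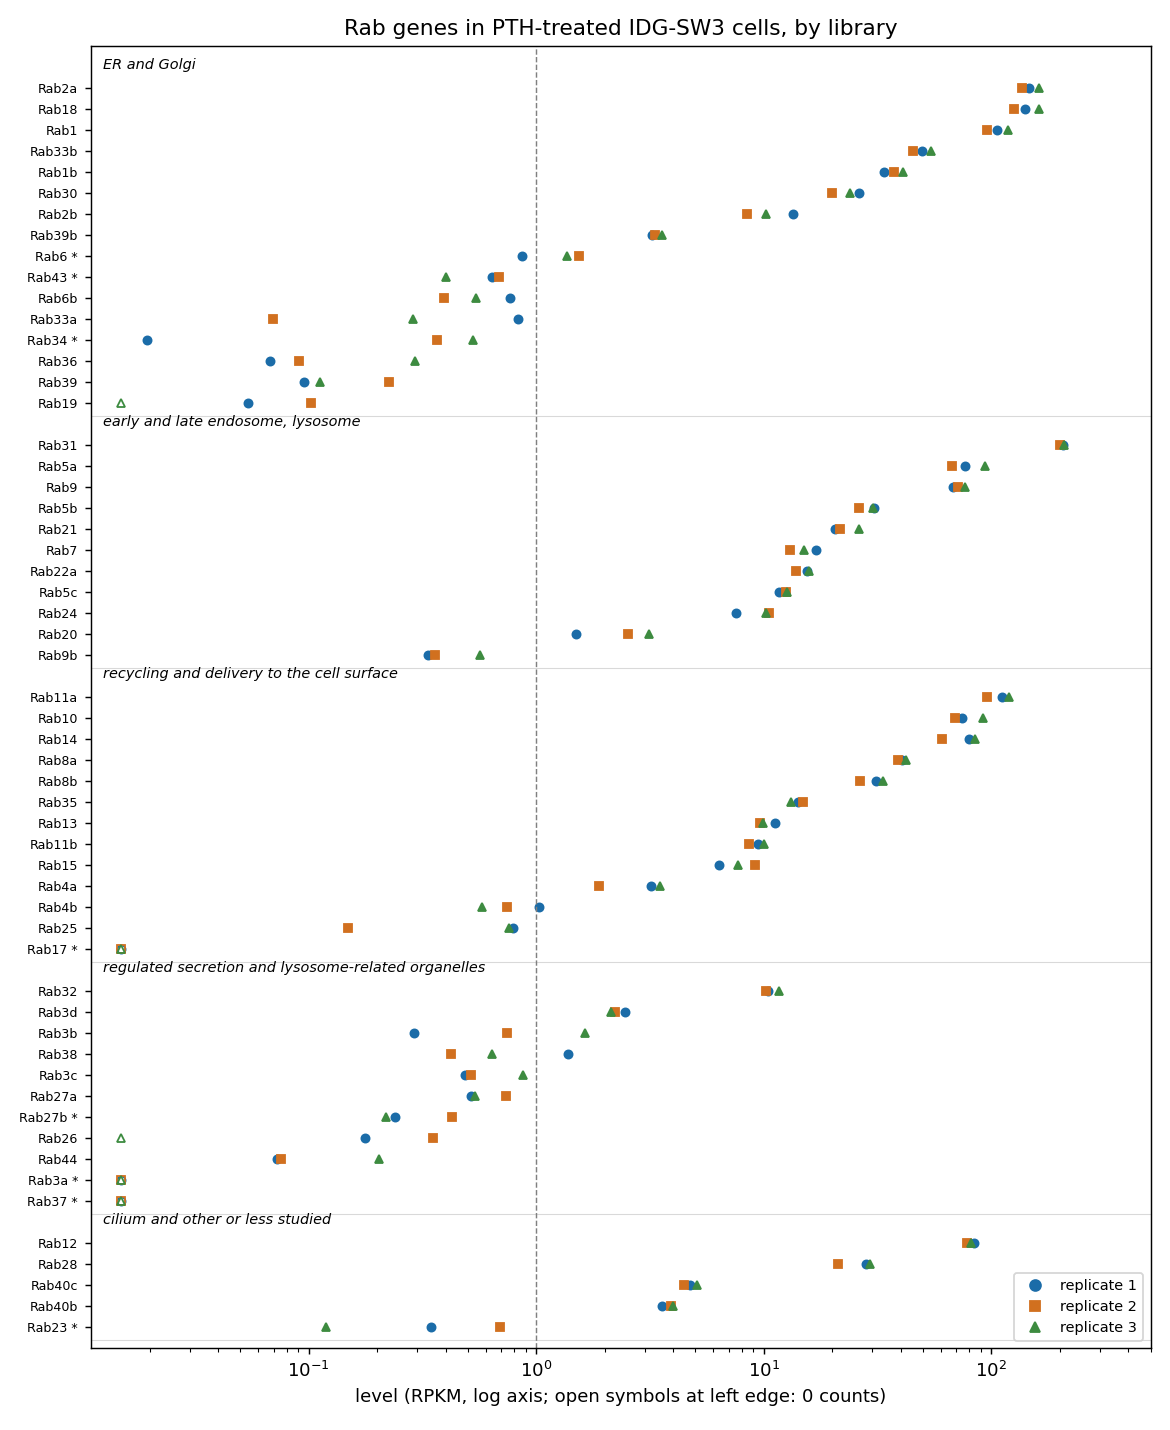
Level of each Rab gene (x axis, RPKM, log axis) in replicates 1, 2 and 3, grouped by role, with the highest mean first in each group. Open symbols at the left edge are libraries with 0 counts, an asterisk marks a gene with 2 rows, and the dashed line marks 1 RPKM. Rab31 leads at 207, 201 and 208 RPKM. The group of regulated secretion and lysosome-related organelles holds only 2 genes above the line by the test.

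Rabs of the endoplasmic reticulum and Golgi included some of the highest members and some of the lowest. The test placed 8 of its 16 members above 1 RPKM and 1 below, and left 7 unresolved. The 8 are 50.0%, near the 43.2% of all genes tested, and 3 of the 16 have 2 rows. For calls below the share of all genes tested was 9.88%. Rab2a, which acts between the endoplasmic reticulum and the Golgi, had 10965, 10836 and 15570 counts in replicates 1, 2 and 3, or 146, 136 and 161 RPKM (148 ± 12.7). Rab1, named Rab1a in current annotation and needed for transport from the endoplasmic reticulum to the Golgi, had 9787, 9461 and 14170 counts, or 105, 96.0 and 119 RPKM (107 ± 11.3). Rab18, found on the endoplasmic reticulum and lipid droplets, had 5860, 5560 and 8678 counts, or 141, 126 and 162 RPKM (143 ± 18.2). Replicate 3 was highest and replicate 2 lowest for these 3 genes. The level of Rab18 was 46.7 RPKM with the longer RefSeq-linked lengths, while those of Rab2a (148) and Rab1 (106) hardly moved.

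Rab33b, a Golgi Rab that also binds the autophagy protein Atg16l1, had 6113, 5881 and 8537 counts and a level of 49.6 ± 4.45 RPKM. Rab1b, the near copy of Rab1, had 898, 1050 and 1401 counts and a level of 37.3 ± 3.60 RPKM, or 14.8 RPKM with the RefSeq-linked lengths. Rab2b had 1243, 821 and 1206 counts and a level of 10.7 ± 2.58 RPKM. For Rab2b the libraries spread over 24.1% of the mean (coefficient of variation), and exons of Gm43766 and Tox4 overlap it on the opposite strand. Rab30, another Golgi Rab, stood at 23.3 ± 3.06 RPKM, but at 3.47 RPKM with its RefSeq-linked length, the largest move between these lengths among the members. Rab39b, a Rab studied mostly in neurons, stood at 3.37 ± 0.166 RPKM.

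The remaining Golgi members were low in these files. Rab6, the Rab of retrograde Golgi traffic that most cells use, had 95, 179 and 192 counts over its 2 rows and a level of 1.26 ± 0.350 RPKM. The rows of Rab6 had 43, 91 and 94 counts and 52, 88 and 98 counts, so they held similar shares in each library. Its neuron-enriched relative Rab6b had 77, 42 and 70 counts, and both were unresolved against 1 RPKM, although Rab6 was called above in the settings named before. Rab43, another Golgi Rab, had 97, 110 and 78 counts, all in 1 of its 2 rows, and was called below at 0.575 ± 0.153 RPKM (edgeR adjusted p = 0.042, over its alternatives 0.00204 to 0.68). The call was lost when any 1 library was left out. With the shortest transcript length the direction turned and Rab43 was called above (log2 level against 1 RPKM 0.97, edgeR adjusted p = 0.00204). Rab34, which acts in lysosome positioning and in making primary cilia, had 1, 20 and 35 counts over 2 rows and is uncertain for that reason. Rab33a, Rab36, Rab39 and Rab19 had at most 39 counts in any library and were unresolved.

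Endosomal Rabs formed the group with the largest share above 1 RPKM, 10 of 11 members (90.9%), with 1 below. Over all tested genes with 1 row 45.4% were above and 9.19% below. All 11 endosomal members have 1 row, whereas each other group holds members with 2 rows, so the groups are not alike in listing. Rab31, a relative of Rab5 that works between the trans-Golgi network and endosomes, led the whole family. It had 14660, 15067 and 18956 counts, or 207, 201 and 208 RPKM (205 ± 4.01). Its coefficient of variation over the replicates was 1.95%, the lowest of the members with counts. With RefSeq-linked lengths Rab31 stood at 119 RPKM and came second, after Rab2a at 148 RPKM. By counts alone, without any length, it was first.

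Rab5a, which drives fusion of early endosomes, had 6367, 5937 and 10043 counts, or 76.5, 67.3 and 93.8 RPKM (79.2 ± 13.5). Its relatives Rab5b, with 3425, 3114 and 4343 counts, and Rab5c, with 795, 907 and 1110 counts, stood at 29.0 ± 2.40 and 12.3 ± 0.550 RPKM. The libraries of these 3 genes did not overlap, in the order Rab5a, Rab5b, Rab5c. Rab9, which returns cargo from late endosomes to the Golgi, had 3446, 3843 and 5012 counts, or 67.7, 71.2 and 76.6 RPKM (71.8 ± 4.48). Rab7, the Rab of late endosomes and lysosomes, was lower, with 1052, 857 and 1189 counts, or 17.0, 13.1 and 14.95 RPKM (15.01 ± 1.97). Its level overlapped that of Rab22a (14.98 ± 1.01 RPKM), an early endosome Rab with 2169, 2064 and 2846 counts.

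Rab21, which traffics integrins, stood at 22.8 ± 3.06 RPKM, and Rab24, linked to autophagy, at 9.45 ± 1.66 RPKM. Rab20 was the lowest member called above in this group, with 73, 131 and 197 counts and 2.38 ± 0.828 RPKM. Its spread, 34.8% of the mean, was the widest of the 34 members above, and its call was lost with DESeq2 (adjusted p = 0.27, over all alternatives 2.64e-08 to 0.27). Rab9b, a near copy of Rab9, was called below 1 RPKM with 47, 53 and 102 counts and 0.420 ± 0.128 RPKM (edgeR adjusted p = 0.0187, over its alternatives 0.00312 to 0.587). That call was lost without replicate 1 or replicate 2.

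Rabs of recycling and of delivery to the cell surface had 10 of 13 members above 1 RPKM, while 2 were unresolved and Rab17 had 0 counts. The 10 are 76.9%, beside 39.4% of all genes with a length. Rab11a, the main Rab of recycling endosomes, had 2843, 2587 and 3929 counts, or 111, 95.5 and 119.6 RPKM (109 ± 12.2). That level rests on a median length of 726 bases and was 33.8 RPKM with the RefSeq-linked length of 2336 bases. Rab10, which brings vesicles to the plasma membrane, had 9168, 9100 and 14643 counts, or 74.2, 69.5 and 92.1 RPKM (78.6 ± 11.97). Rab14, a Golgi and endosome Rab, had 5638, 4523 and 7651 counts, or 80.0, 60.5 and 84.4 RPKM (74.98 ± 12.7). Replicate 2 was lowest for all 3 genes. Rab8a, which carries vesicles from the trans-Golgi network to the surface and to cilia, had 6446, 6625 and 8660 counts, or 40.3, 39.0 and 42.1 RPKM (40.5 ± 1.53).

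Rab8b, with 5181, 4669 and 7156 counts, followed at 30.3 ± 3.55 RPKM, and Rab35, a Rab of fast recycling, at 14.0 ± 0.873 RPKM. Rab13, known from cell junctions, stood at 10.2 ± 0.881 RPKM and Rab11b, with 1264, 1232 and 1732 counts, at 9.34 ± 0.688 RPKM. Rab15, an endosome Rab studied mostly in neurons, stood at 7.71 ± 1.40 RPKM, or 1.995 RPKM with the RefSeq-linked length. Rab4a, which returns receptors rapidly to the surface, had 141, 88 and 198 counts and 2.87 ± 0.860 RPKM. It was called above by edgeR but not by DESeq2 (adjusted p = 0.111, over all alternatives 2.03e-11 to 0.111). Its near copy Rab4b had 43, 33 and 31 counts and was unresolved at 0.781 ± 0.228 RPKM. Rab25, known from epithelia, had 30, 6 and 37 counts and was unresolved. Rab17, another Rab known from epithelia, had 0 counts in its 2 rows, where 3 counts would be 0.0503, 0.0475 and 0.0391 RPKM in replicates 1, 2 and 3.

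Rabs of regulated secretion and of lysosome-related organelles had 2 of 11 members above 1 RPKM and 2 below, while 5 were unresolved and 2 had 0 counts. Over all genes with a length, tested or not, 39.4% were above. The call below was made for 9.88% of all genes tested, and for 15.7% of those with several rows. The median of the group was 0.597 RPKM. Of its 11 members 3 have 2 rows (Rab3a, Rab27b and Rab37), among them both members at 0 and 1 of the 2 below, whereas 0 of the 11 endosomal members have 2 rows. Rab32, which sorts cargo to lysosome-related organelles such as melanosomes, had 792, 822 and 1128 counts, or 10.5, 10.3 and 11.6 RPKM (10.8 ± 0.724). Rab3d, a secretory granule Rab, had 332, 317 and 371 counts, or 2.46, 2.22 and 2.14 RPKM (2.27 ± 0.168). These 2 genes were the ones above 1 RPKM, and the call of Rab3d was lost with DESeq2 (adjusted p = 0.305, over all alternatives 4.24e-28 to 0.305). The summed level of the group was 16.1, 15.7 and 17.9 RPKM in replicates 1, 2 and 3, against 455, 440 and 492 RPKM for the endosomal group.

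The exocytosis Rabs Rab27a and Rab27b were both under 1 RPKM on average. Rab27a had 56, 84 and 75 counts and was unresolved at 0.597 ± 0.118 RPKM. Rab27b had 24, 45 and 28 counts, all in 1 of its 2 rows, and was called below at 0.294 ± 0.114 RPKM (edgeR adjusted p = 0.0425, over its alternatives 0.000458 to 0.538). Rab44, a large Rab with additional domains, was the other member of the group below, with 10, 11 and 36 counts and 0.117 ± 0.0746 RPKM (edgeR adjusted p = 0.0389, over its alternatives 1.86e-05 to 0.413). The calls of Rab27b and Rab44 were lost when any 1 library was left out.

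The other members of this secretion and organelle group gave few counts. Rab3b had 11, 30 and 80 counts and Rab38, the melanosome relative of Rab32, 52, 17 and 31. Rab3c had 41, 46 and 95 counts and Rab26, a granule Rab, 8, 17 and 0. Replicate 3 was highest for Rab3b and Rab3c and listed at 0 for Rab26, so the libraries did not shift together at this depth. Rab3a, the synaptic vesicle Rab, and Rab37 had 0 counts in each of their 2 rows. The pigment cell markers measured beside Rab32 and Rab38 were at 0.115 RPKM or less.

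The remaining Rabs have roles in cilia or are less studied, and 4 of 5 (80.0%) were above 1 RPKM, beside 43.2% of all genes tested. The other member was below, a call made for 9.88% of all genes tested. Rab12, which directs the transferrin receptor to degradation, had 6012, 5919 and 7512 counts, or 83.8, 77.8 and 81.4 RPKM (81.0 ± 3.00). Rab28, known from photoreceptor cilia, stood at 26.2 ± 4.31 RPKM. Rab40c and Rab40b, which carry a SOCS box that recruits ubiquitin ligases, stood at 4.75 ± 0.321 and 3.82 ± 0.223 RPKM. Rab23, a regulator of Hedgehog signalling, had 52, 110 and 23 counts over 2 rows and was called below at 0.385 ± 0.288 RPKM (edgeR adjusted p = 0.0188, over its alternatives 0.00614 to 0.575). Its rows had 3, 37 and 5 counts and 49, 73 and 18 counts, and replicate 2 was highest in each. Leaving out replicate 1 or replicate 2 ended the call.

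Near copies were then set against each other within each library, as the difference of log2(RPKM + 0.1). With 3 libraries an exact sign-flip test cannot give a p below 0.25, so the ratios carry no p. In 13 of the 14 pairs all 3 libraries pointed the same way. These include Rab3d over Rab3a, where no other direction was possible because Rab3a had 0 counts in every library. Rab33b exceeded Rab33a most, with log2 ratios of 5.74, 8.06 and 7.13 in replicates 1, 2 and 3 (6.98 ± 1.17), and Rab33a had 34, 3 and 15 counts. Per kilobase, the counts of Rab33b summed over the libraries were 131 times those of Rab33a, with an exact 95% binomial interval of 99.8 to 175 that covers counting error only. Rab3d exceeded Rab3a by at least 38.8-fold when 3 counts per library are allowed for Rab3a, whose value is uncertain because it has 2 rows.

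Rab2a exceeded Rab2b 13.9-fold (log2 ratio 3.80 ± 0.32), Rab31 exceeded Rab22a 13.6-fold (3.77 ± 0.07) and Rab32 exceeded Rab38 13.1-fold (3.72 ± 0.77). These folds are not equally firm. Of the 50-base stretches of Rab2b 71.9% also lie in other genes, and Rab38 had 100 counts over all libraries with a coefficient of variation of 61.4%. Rab11a exceeded Rab11b 11.5-fold, with log2 ratios of 3.55, 3.45 and 3.57 (3.52 ± 0.06). Although its libraries lay close together, that ratio was 2.51 with RefSeq-linked lengths, a shift far larger than the spread. By counts alone, without any length, Rab11a had 2.21 times those of Rab11b. Rab1 exceeded Rab1b 2.85-fold (log2 ratio 1.51 ± 0.14), and here the RefSeq-linked lengths widened the ratio to 2.84 on the log2 scale. By counts Rab1 had 9.98 times those of Rab1b.

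Rab8a exceeded Rab8b 1.34-fold, with log2 ratios of 0.37, 0.56 and 0.33 (0.42 ± 0.12). The shortest, median and longest lengths of each of these 2 genes are the same. Rab5c was lower than Rab5a, with a log2 ratio of −2.67 ± 0.24, and lower than Rab5b, with −1.23 ± 0.16. Rab4a exceeded Rab4b with 1.56, 1.24 and 2.42 (1.74 ± 0.61), and Rab27a exceeded Rab27b with 0.86, 0.67 and 1.01 (0.85 ± 0.17). Of the 50-base stretches of Rab4b 80.3% also lie in Gm21983, so its reads cannot be told apart from those of that gene. Of the genes in this paragraph Rab27b, Rab6 and Rab34 have 2 rows, so their values are uncertain. The log2 ratio of Rab6 over Rab6b was 0.16, 1.74 and 1.19 (1.03 ± 0.80), and that of Rab34 over Rab36 was −0.49, 1.29 and 0.68 (0.49 ± 0.90). In the pair of Rab34 and Rab36 the spread exceeded the mean and the libraries disagreed in direction. The ratio of Rab6 over Rab6b turned to −0.55 with the shortest transcripts, and that of Rab34 over Rab36 to −0.05 with the mean over rows. For Rab27a over Rab27b the ratio was 1.62 with the longest transcripts.

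**Figure D3:**
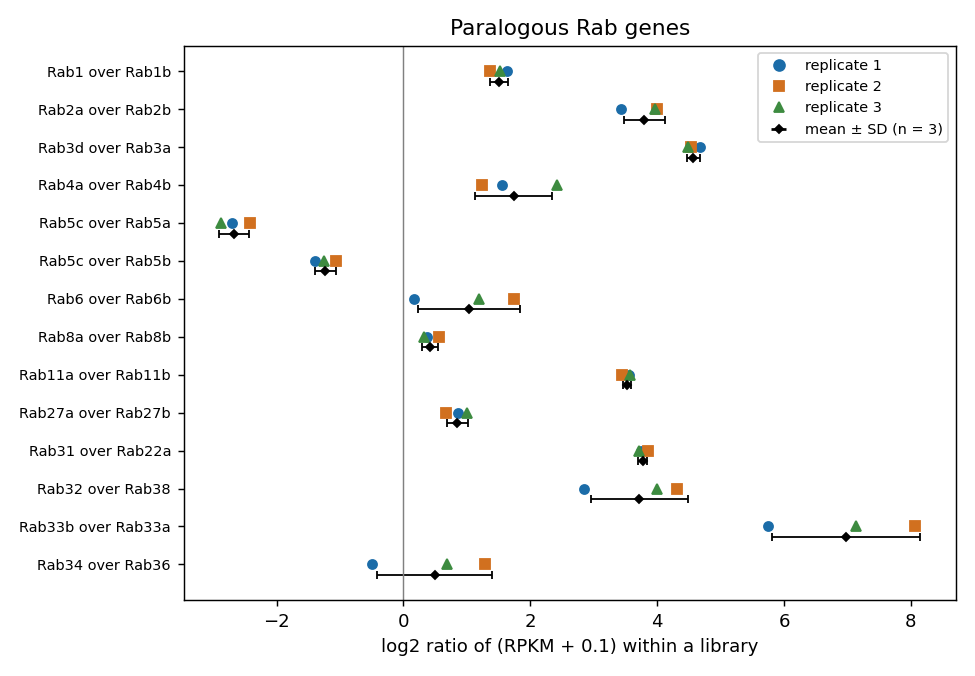
Log2 ratio of (RPKM + 0.1) between 14 pairs of related Rab genes (x axis), with 1 symbol for each of replicates 1, 2 and 3 and a diamond with bar for the mean ± SD (n = 3). The ratio of Rab33b over Rab33a is the largest at 6.98, both Rab5c pairs lie left of 0, and the libraries of Rab34 over Rab36 fall on both sides of 0.

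**Figure D4:**
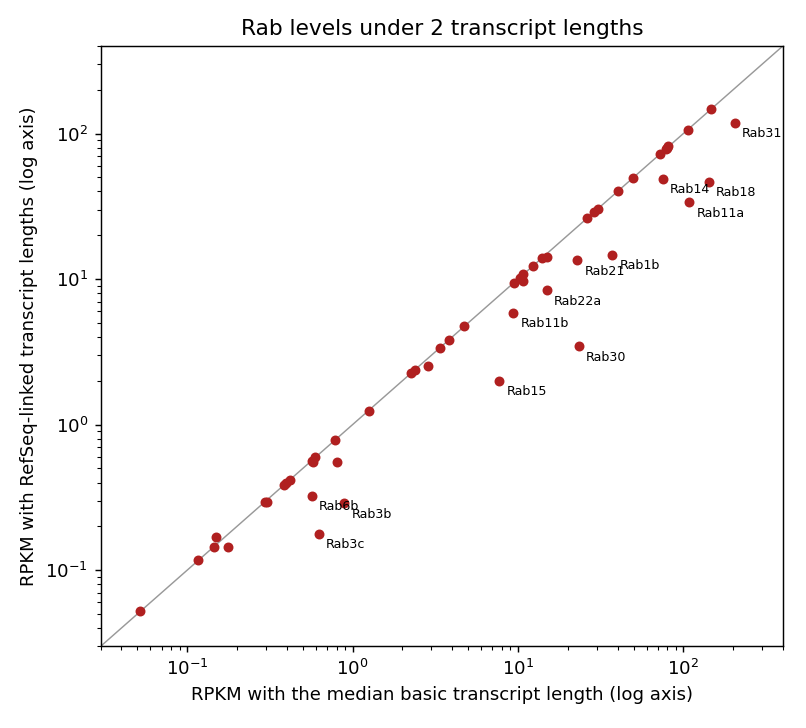
Mean level of each Rab gene above 0 counts with RefSeq-linked transcript lengths (y axis, RPKM, log axis) against that with the median length of basic transcripts (x axis, RPKM, log axis). The named genes are the 13 that moved by more than 1.5 times, with Rab30 at 3.47 RPKM by RefSeq-linked and 23.3 RPKM by median length, and the other genes lie on or near the diagonal.

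Replicates lay closer together for the members above 1 RPKM than for the other members tested. Over the 34 members above 1 RPKM the coefficient of variation had a median of 9.31%, from 1.95% for Rab31 to 34.8% for Rab20, where the median over all genes called above was 11.1%. Among the 12 highest members it still reached 17.0%, for Rab5a. Over the 19 members that were tested but not above, the median was 61.4% and the range 19.8% to 100%. In 12 of the 34 above, or 35.3%, the spread between libraries was more than 5 times that of counting error alone, where this held for 32.6% of all genes called above.

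Replicate 3 had the highest RPKM for 24 of the 34 members above, or 70.6%, where this held for 42.9% of all genes called above. Rab genes took 0.323%, 0.297% and 0.351% of all counts in replicates 1, 2 and 3. The shift was not shared by every member, since Rab12, Rab5b, Rab30, Rab7, Rab2b, Rab13 and Rab3d were highest in replicate 1, and Rab35, Rab24 and Rab15 in replicate 2. Replicate 3 was also the deepest library and had the most symbols at 0 counts, and the part of depth in this difference was not tested. Marker levels moved as well: the 4 fat cell markers summed to 10.53, 10.46 and 17.03 RPKM in replicates 1, 2 and 3, with 222, 297 and 537 counts of Fabp4 and Plin1 at 0 in each. The 13 osteoblast and osteocyte markers summed to 6454, 6248 and 5618 RPKM. Their part in the result was not tested.

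**Figure D5:**
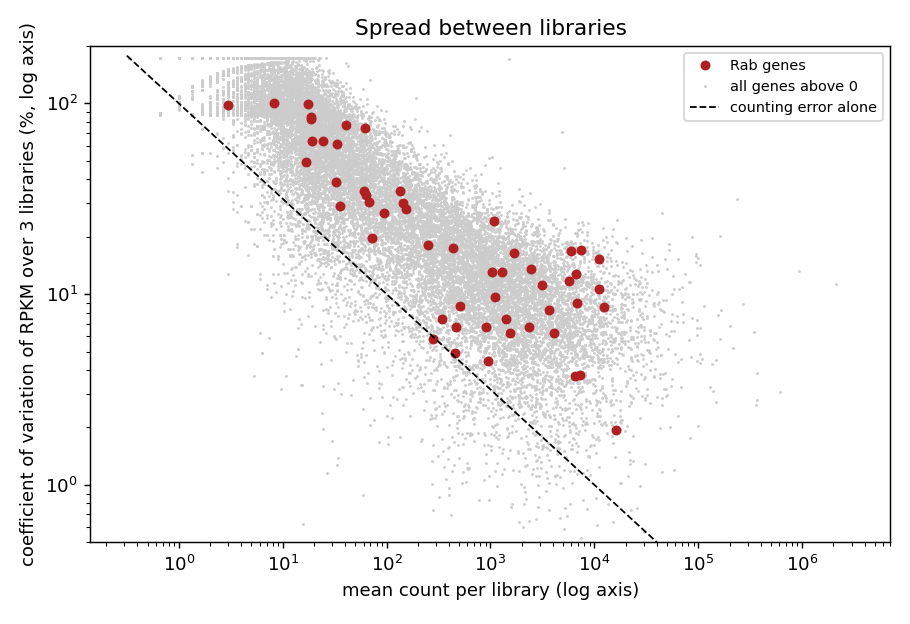
Coefficient of variation of RPKM over the 3 libraries (y axis, %, log axis) against the mean count per library (x axis, log axis) for Rab genes and for all genes above 0; the dashed line is the spread that counting error alone gives. Rab genes run from 100% for Rab26 to 1.95% for Rab31, and 12 of the 34 genes above 1 RPKM have more than 5 times the spread of the line.

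Partners of the Rab cycle were expressed as well. Among proteins that prenylate Rabs, carry them or insert them into membranes, 11 of 13 measured genes were above 1 RPKM and 1 was unresolved, while 1 had 0 counts. Their median was 8.48 RPKM. Gdi2, which extracts inactive Rabs from membranes and holds them in the cytosol, stood at 138 ± 7.52 RPKM. Yipf4, Yipf5 and Yipf6, membrane proteins of the Golgi region, stood at 130 ± 19.0, 53.3 ± 5.79 and 34.8 ± 2.85 RPKM. Among exchange factors, 23 of 37 were above and 5 below, and 3 had 0 counts. Their median was 3.10 RPKM. Those with the highest levels were Rin2 at 99.3 ± 2.16 RPKM and Rabgef1 at 33.8 ± 5.43 RPKM, both of which activate Rab5, Trappc3, a subunit of the TRAPP complexes that act on Rab1, at 58.6 ± 7.79 RPKM, and Rab3ip, which activates Rab8, at 33.5 ± 5.0 RPKM.

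Among GTPase-activating proteins, 25 of 37 were above and 4 below, and 2 had 0 counts. Their median was 4.57 RPKM. Rab3gap1, a subunit of the complex that inactivates Rab3 and also activates Rab18, was highest at 43.3 ± 0.903 RPKM, followed by Rabgap1l (39.9 ± 4.77), Evi5 (28.0 ± 4.87) and Tbc1d23 (27.3 ± 2.72). Among effectors, 30 of 55 were above and 8 below, and 5 had 0 counts. Their median was 1.78 RPKM. The highest was Rabep1, which encodes the Rab5 effector rabaptin-5, at 122 ± 12.8 RPKM. Tmf1, a Golgi protein that binds Rab6, stood at 62.9 ± 3.84 RPKM, and the early endosome tethers Eea1 and Zfyve20 (rabenosyn-5) at 27.3 ± 2.07 and 25.7 ± 1.93 RPKM. These shares include genes at 0, and over all genes with a length 39.4% were above. Below, the call was made for 9.88% of all genes tested. Over the 4 partner lists 11 genes were at 0, of which 10 have several rows, so these values too are not read as absence.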

How the data were processed

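Total RNA was depleted of ribosomal RNA and made into directional libraries, per the labels' protocols, and 1 file was deposited for each of the 3 libraries. Per the submitters' processing notes TopHat and build mm9 were used. Their versions and how reads were counted (tool, annotation, strand, duplicates, multiple matches) are not stated in the sources used here. The deposited values were read as raw counts, although the file names say RPKM: they are whole numbers, and multiplied by transcript kilobases they sum to 111222095, 118318578 and 144757978, where RPKM would give about 1000000. Every RPKM and interval rests on this reading.

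Rows of a symbol were summed. Lengths were medians over basic GENCODE M21 transcripts (GRCm38), matched for 20840 symbols directly and 2208 by RefSeq synonym; other symbols were not tested. edgeR 4.0.16 compared the level of each gene that had a length and any count with 1 RPKM (two-sided, quasi-likelihood, offset at 1 RPKM, Benjamini-Hochberg over 21012 genes, threshold 0.05). A further planned family for comparison is not reported here. limma 3.58.1 and DESeq2 1.42.0 were alternatives. Ratios used a pseudocount of 0.1 and understate folds of low genes. Alignments used Biopython 1.88. The fit was tested on simulated data, with 50 genes set at each level away from 1 RPKM. It called 12% of those at 0.5 RPKM and 40% at 0.25 RPKM, against 56% at 2 RPKM and 82% at 4 RPKM. At 1 RPKM itself 4.5% of 200 were called. Each simulated gene kept the variability fitted at its original level, so these rates may differ for real genes at the same level. In this simulation calls below were harder to reach than calls above, and an unresolved gene may lie below. Members, pairs and lists were chosen with earlier results of these data known. All members may be named, and of each partner list the 4 with the highest level. Reads are not independent molecules, so intervals and floors cover counting error only.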

Additional observations from a re-analysis of the deposited data

How the results depend on the processing

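The number of Rab genes above 1 RPKM was 34 and lay between 31 (DESeq2) and 37 (shortest transcripts) under the alternatives run. The number below was 5, and ranged from 0 to 2 with 1 library left out. It was 0 with totals that omit the 15 highest symbols and with DESeq2 (6 and 0 at an unadjusted p under 0.05), 10 and 13 with limma at pseudocounts of 0.1 and 1, 3 with the shortest transcripts, 9 with the longest, 8 with RefSeq-linked lengths (chosen after seeing the data) and 2 over members with 1 row, so no statement about the family rests on it. The median of 6.23 RPKM became 7.52 with totals that omit the 15 highest symbols, 10.1 with the shortest transcripts, 3.64 with the longest and with RefSeq-linked lengths, and 10.5 over members with 1 row.

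With the shortest transcripts the log2 ratios were 2.45 for Rab1/Rab1b, 3.07 for Rab2a/Rab2b, 6.98 for Rab3d/Rab3a, 2.88 for Rab11a/Rab11b, 3.40 for Rab31/Rab22a and 2.91 for Rab32/Rab38, and Rab6/Rab6b reversed to −0.55. With the longest they were 2.75 for Rab1/Rab1b, 2.51 for Rab11a/Rab11b and 1.62 for Rab27a/Rab27b, and with RefSeq-linked lengths 2.84 and 2.51 for Rab1/Rab1b and Rab11a/Rab11b. With a pseudocount of 1 they were 1.71 for Rab3d/Rab3a, 1.10 for Rab4a/Rab4b, 3.40 for Rab11a/Rab11b, 0.30 for Rab27a/Rab27b, 3.69 for Rab31/Rab22a, 2.73 for Rab32/Rab38 and 5.21 for Rab33b/Rab33a. With the mean over rows Rab6/Rab6b was 0.14, Rab27a/Rab27b 1.51 and Rab34/Rab36 reversed to −0.05, and with the highest row Rab6/Rab6b was 0.19.

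Single levels that changed side of 1 RPKM, as log2 levels, were Rab3b (between −0.95 and 0.25 with 1 library left out, reversed without replicate 1, and 0.10 with totals that omit the 15 highest symbols), Rab6 (−0.66 with the mean over rows, −0.62 with the highest row), and, with the shortest transcripts, Rab3c (0.63), Rab6b (1.17), Rab38 (0.58) and Rab43 (0.97). The alternatives that moved these single levels change only the lengths, rows, totals or libraries used. Those of the paragraphs above also change the test (DESeq2 or limma) or the pseudocount. No paired analysis was possible because the labels give 1 group.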
